A study of Mus musculus with 12 samples.

Results

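The genes described here encode the parts of heterotrimeric G protein signalling: the alpha, beta and gamma subunits, the RGS proteins (regulators of G protein signalling), the kinases that phosphorylate activated receptors, and the arrestins. The 49 genes were listed by name from the family, with earlier results of these data known, and 47 of them had at least 1 array row carrying their symbol alone, among 19935 genes measured in that way. Gnas, whose row it shares with another symbol, and Rgs10, which has no row of its own, were not analysed here.

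RNA came from the dissected striatum of male Swiss-Albino mice aged 2 months, and each Affymetrix Mouse Gene 1.0 ST array received the pooled RNA of 4 animals. All groups went through 6 induction trials on alternate days and a challenge 7 days later, with tissue taken 1 h after it. The saline group (6 arrays) received vehicle in the induction, the morphine group (3 arrays) received vehicle followed by morphine at 20 mg/kg, and the butyrate-morphine group (3 arrays) received sodium butyrate at 300 mg/kg, an inhibitor of histone deacetylases, followed by the same dose of morphine. The labels conflict on the challenge of the saline group, since its source name gives saline and the protocol text gives every animal morphine at 20 mg/kg, so a difference from saline holds either repeated and acute morphine together or repeated morphine alone. No group received butyrate without morphine.

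A receptor bound by its ligand exchanges GDP for GTP on the alpha subunit, which then separates from the beta-gamma pair, and both act on enzymes and channels until the alpha subunit hydrolyses its GTP. RGS proteins speed that hydrolysis, while receptor kinases and arrestins silence the receptor itself. In striatal projection neurons, dopamine D1 and adenosine receptors couple to Golf, made of Gnal with a beta and a gamma subunit, and stimulate cyclic AMP formation, whereas the mu opioid and dopamine D2 receptors couple to the Gi/o class and oppose it.

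The deposited values are differences from a saline baseline on a log scale taken as log2, so they give a gene's change and not its level, and no gene's level can be set against another's. Within each gene, saline arrays 1 and 2, 3 and 4, and 5 and 6 are mirror images that sum to 0 within 1e-06. The mean and the median of saline are therefore 0 throughout, and only 3 of the 6 saline values of a gene are independent. A fit that leaves out 1 saline array keeps its mirror image and so moves the saline mean off 0. Rounding of the stored numbers placed 25 of the 47 members (53.2%) in a class of stored values between 8 and 16, beside 24.5% of single-symbol rows. Another 21 (44.7%, beside 69.4% of rows) lay in a class between 4 and 8, and Rgs2 could not be read. Of 10 measured markers of striatal projection neurons, 7 lay in the higher class. The labels do not say against which saline arrays each treated array was centred, and each value "of the saline level" and each statement on overlap takes 1 common baseline. Because each saline value is a deviation within its pair, spread between the pairs is not in the data, and a p-value is set against the spread among treated pools and within saline pairs.

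After repeated morphine, 6 of the 47 members fell and none rose at a Benjamini-Hochberg adjusted p under 0.05 in limma. They were the RGS genes Rgs20, Rgs5 and Rgs4, the alpha subunit Gnal, the gamma subunit Gng13 and the beta subunit Gnb2, with losses of between 0.14 and 0.38 on the log2 scale. Each was measured by a single probe set: 10352957 for Rgs20, 10351455 for Rgs5, 10359908 for Rgs4, 10456363 for Gnal, 10442829 for Gng13 and 10534842 for Gnb2. The 6 members make up 12.8% of those measured, where 2.66% of all genes passed in either direction, 1.29% as lower and 1.37% as higher. The members lie more often in the class of higher stored values than all rows do. With only rows of that class, 4 of 25 members were called, beside 4.77% of 4755 genes. At an unadjusted p under 0.05, 13 members were lower and 2 higher (31.9%, beside 15.5% of all genes, 1740 lower and 1357 higher). The median difference of the members was -0.045, beside -0.0036 over all genes, and 32 of 47 members (68.1%) lay below 0, beside 52.2% of all genes. By array, the members' median was -0.025, -0.061 and 0.0014 in morphine arrays 1, 2 and 3, with 27, 36 and 23 of 47 below 0, so array 2 lay lowest and array 3 did not lean downwards. The mean of the 6 members that fell was -0.21, -0.24 and -0.22 in the 3 arrays. These members were called from the same arrays, which favours genes with like values, so this is no separate evidence. In 9 members all 3 morphine arrays lay below all 6 saline arrays (19.1%, beside 4.35% of all genes), and in none did they all lie above (3.84% of all genes).

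These calls lean on all 6 saline arrays entering the fit. With each mirror pair entered as saline arrays 1, 3 and 5, 1 member was called after morphine (Gng13, limma adjusted p = 0.0487) and Rgs20 missed the threshold (0.0657). Keeping 1 array of a pair moves the saline mean off 0, so the differences shift too. In this fit they were -0.23 for Gng13, -0.31 for Rgs20 and -0.15 for Rgs4. With all saline arrays they were -0.18, -0.38 and -0.20. With saline arrays 1 to 3 no member was called, and with saline arrays 4 to 6 the call of Rgs20 alone was made. Of all genes, 0.587%, 0.502% and 0.482% were called in these fits, in that order. With the morphine-treated arrays tested against the baseline at 0, without the saline arrays, Rgs20, Rgs4, Rgs5 and Gng13 were called (1.87% of all genes were). The baseline enters that fit as a fixed value, so its own error is not counted. Leaving out both arrays of a saline pair left Rgs20 called after morphine for each of the 3 pairs, Rgs5 called only without pair 5 and 6, and Gnal, Gnb2, Gng13 and Rgs4 called for none.

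**Figure D1:**
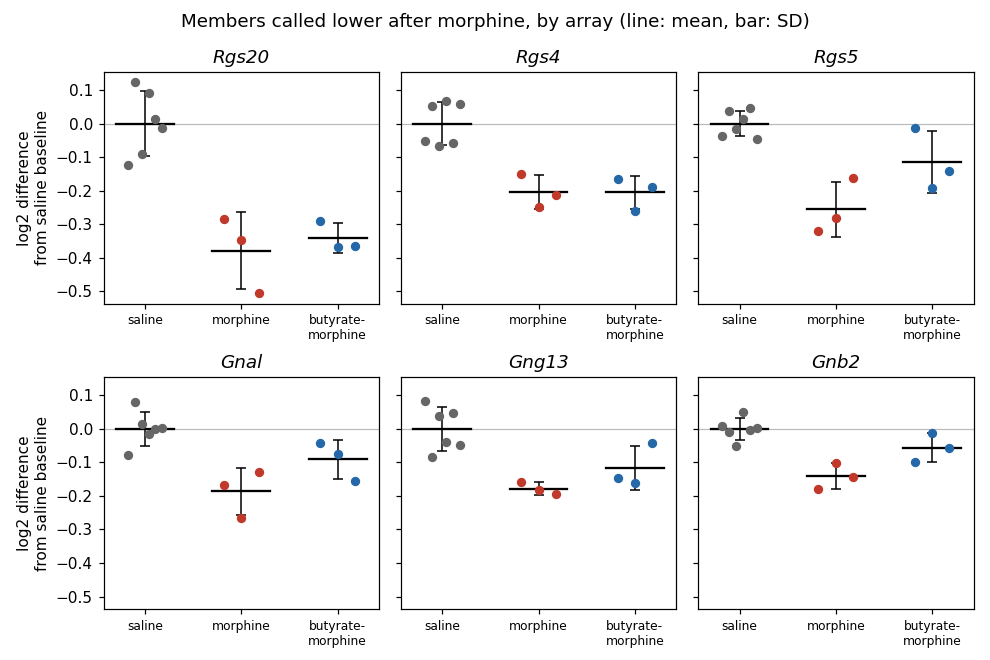
Log2 difference from the saline baseline (y axis) in each array of the saline, morphine and butyrate-morphine groups (x axis) for the 6 members that fell after morphine; points are arrays, lines are group means and bars are SDs. For all 6 genes the 3 morphine arrays lie below every saline array, and for Rgs20 and Rgs4 the 3 butyrate-morphine arrays do too.

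Rgs4 and Rgs5 are neighbours on mouse chromosome 1 with no protein-coding gene between them in RefSeq, and both belong to the R4 family of small RGS proteins. Their upstream sequences are shown because these neighbours fell together after morphine. Each line gives the 250 bases before the start of the gene in RefSeq, build GRCm38.p6, 5′ to 3′ on the gene's own strand: Rgs4 at chr1:169747643-169747892 on the minus strand and Rgs5 at chr1:169655251-169655500 on the plus strand. Capitals mark matches to the searched motifs.
Rgs4: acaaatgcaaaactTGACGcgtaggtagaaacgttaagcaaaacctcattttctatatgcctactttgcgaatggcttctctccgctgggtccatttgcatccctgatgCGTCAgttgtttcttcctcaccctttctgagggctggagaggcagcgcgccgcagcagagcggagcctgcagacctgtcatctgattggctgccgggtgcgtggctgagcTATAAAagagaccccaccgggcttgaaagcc
Rgs5: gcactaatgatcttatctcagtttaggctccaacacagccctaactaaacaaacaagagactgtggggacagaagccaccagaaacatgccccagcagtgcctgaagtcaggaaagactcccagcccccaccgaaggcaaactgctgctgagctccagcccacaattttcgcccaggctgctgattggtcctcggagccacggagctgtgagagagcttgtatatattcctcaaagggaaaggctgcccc

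The search covered both strands for the cyclic AMP response element TGACGTCA, its core TGACG, the GC box GGGCGG, the TATA box TATAAA, the E-box CACGTG and the glucocorticoid half-site AGAACA. A full element also holds the core. The table holds windows for 35 of the 47 members and for 4 of the 6 that fell. The Rgs4 window holds the core of the cyclic AMP response element at 236 and 141 bases before the start and a TATA box at 31 bases before it. The Rgs5 window holds none of the motifs, and neither do the Gnb2 window and the most upstream of the 2 Gng13 windows. The other Gng13 window was not read separately. Of all 32851 windows of this length in the table, 17.8% hold the core, 12.4% the TATA box, 32.7% the GC box, 16.1% the glucocorticoid half-site, 6.02% the E-box and 1.55% the full element. The neighbours thus share none of these letters, and a match describes the sequence only.

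Rgs20 encodes an RGS protein of the RZ family, which acts on Gz and other Gi/o alpha subunits and is known to associate with mu opioid receptor signalling in brain. Its saline arrays lay between -0.12 and 0.12, with a median of 0. The morphine arrays were at -0.28, -0.35 and -0.51 and the butyrate-morphine arrays at -0.29, -0.37 and -0.36. All 6 morphine-treated arrays were thus below all saline arrays. The mean difference was -0.38 ± 0.11 (SD, n = 3) after morphine, 0.769 of the saline level (95% interval -0.51 to -0.25, limma adjusted p = 0.00491). It was -0.34 ± 0.044 (SD, n = 3) after butyrate and morphine, 0.789 of the saline level (adjusted p = 0.00935). Rgs20 had the lowest adjusted p of the 47 members in both comparisons. The morphine call held in 12 of 12 fits that left out 1 array (adjusted p up to 0.0334), and the butyrate-morphine call in 11, being lost without butyrate-morphine array 2 (0.0553). The latter was also lost without both arrays of saline pair 5 and 6 (0.0532). The other RZ members were nearer 0: Rgs17 had means of -0.062 after morphine and -0.068 after butyrate and morphine. Rgs19 had means of 0.0045 and -0.079.

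Rgs4 is an RGS protein of striatal and cortical neurons that limits signalling from Gi/o and Gq coupled receptors, opioid receptors among them. Saline arrays lay between -0.067 and 0.067, with a median of 0. Morphine arrays were at -0.15, -0.25 and -0.21 and butyrate-morphine arrays at -0.16, -0.26 and -0.19. Every treated array lay below every saline array, and the treated groups overlapped each other. Rgs4 fell by 0.20 after morphine (SD 0.050, n = 3, adjusted p = 0.0241) and by 0.21 after butyrate and morphine (SD 0.050, n = 3, adjusted p = 0.0254), and stood at 0.868 of the saline level in both. The morphine call was lost without saline array 2 or morphine arrays 2 or 3 (adjusted p up to 0.0950). The butyrate-morphine call was lost without saline arrays 2 or 4 or any 1 of the butyrate-morphine arrays (up to 0.127). Without any 1 of the saline pairs neither call was made (0.0715 to 0.108). Over the 6 treated arrays together Rgs4 fell by 0.20 (adjusted p = 0.00519), and that call held in all 12 fits that left out 1 array and in the 3 that left out a saline pair, but not with saline arrays 1, 3 and 5, 1 to 3 or 4 to 6 (0.105, 0.0991 and 0.0580).

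Rgs5 is a small RGS protein known as a marker of pericytes and also present in neurons. Saline arrays lay between -0.045 and 0.045, with a median of 0. The morphine arrays were at -0.32, -0.28 and -0.16 and the butyrate-morphine arrays at -0.012, -0.19 and -0.14. All morphine arrays lay below saline, while butyrate-morphine array 1 lay within the saline range. Rgs5 fell by 0.26 after morphine (SD 0.083, n = 3, adjusted p = 0.0112), to 0.838 of the saline level, and this call held in 12 of 12 fits that left out 1 array, 6 of which keep the mirror image of the array left out. It was lost without saline pair 1 and 2 (0.0679) or 3 and 4 (0.0614), and with saline arrays 1, 3 and 5 (0.110), 1 to 3 (0.128) or 4 to 6 (0.137). After butyrate and morphine the mean was -0.11 ± 0.092 (SD, n = 3, adjusted p = 0.223).

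Markers of other cells moved beside these results. The mean of 9 endothelial markers was between -0.31 and -0.23 in the morphine arrays and between -0.24 and -0.15 in the butyrate-morphine arrays, against a saline range of -0.055 to 0.055, and 4 of the 9 (Kdr, Cldn5, Tek and Flt1) fell in each comparison. For Rgs5 the list that bears most directly is that of pericytes and smooth muscle, whose 9 markers averaged -0.092, 0.036 and -0.079 in the morphine arrays and 0.012, -0.053 and -0.018 in the butyrate-morphine arrays, against a saline range of -0.040 to 0.040. None of those 9 was called in either comparison. Over both morphine groups together Pdgfrb, a receptor that defines pericytes, alone of the 9 was called, at -0.20 (limma adjusted p = 0.0363). Rgs5 fell by 0.18 in that comparison. The pericyte list had a median of -0.0089 there, with Abcc9 the highest at 0.091. At an unadjusted p under 0.05, 2 of its markers were lower and 1 higher. The 9 choroid plexus markers averaged between 1.19 and 1.43 in the morphine arrays and between 0.87 and 1.16 in the butyrate-morphine arrays, against -0.13 to 0.13 in saline, and 9 and 7 of them rose. Of 9 microglial markers, 3 and 2 fell, and of 7 markers of thalamus and septum, 3 rose after morphine and none was called after butyrate and morphine. Of 8 meningeal markers, Igf2 rose in both comparisons (0.85 and 0.62) and Ogn rose after morphine (0.22). Of 9 astrocyte markers, Gjb6 alone was called, and it rose in both comparisons (limma adjusted p = 0.00558 and 0.0306). Over both groups, 5 astrocyte markers were higher and 3 lower at an unadjusted p under 0.05. None of 8 oligodendrocyte and 8 striatal interneuron markers was called in either comparison. The 6 markers of cortical excitatory neurons averaged 0.15, -0.70 and -0.25 in the morphine arrays and -0.045, 0.10 and -0.019 in the butyrate-morphine arrays, against -0.047 to 0.047 in saline, with none called. Morphine array 2, where they were lowest, was also the lowest morphine array for Rgs4. The part of all these markers in the members' differences was not tested. In such bulk tissue, fewer cells of a type and less RNA per cell cannot be told apart, and centred values do not show whether any marker is at 0.

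The other RGS members did not pass in either comparison with saline. Rgs9, the RGS protein enriched in striatum that shortens D2 and mu opioid receptor signalling, had saline arrays between -0.079 and 0.079. Its morphine arrays were at -0.14, -0.037 and -0.24 and its butyrate-morphine arrays at -0.063, -0.075 and -0.052. All 6 treated arrays lay below 0 and overlapped saline, and the means were -0.14 ± 0.10 (SD, n = 3, adjusted p = 0.121) and -0.063 ± 0.012 (SD, n = 3, adjusted p = 0.521). The Rgs9 difference passed in the fit without morphine array 2 (adjusted p = 0.0382), where 2.47% of all genes were called. Gnb5, the beta subunit that forms a stable complex with Rgs9 and the other R7 members, had morphine arrays at -0.17, -0.098 and -0.12 below a saline range of -0.084 to 0.084. Its mean was -0.13 ± 0.036 (SD, n = 3, adjusted p = 0.184) after morphine, and its butyrate-morphine arrays were at -0.13, 0.011 and -0.018 (adjusted p = 0.696). Of the remaining R7 members, Rgs6 averaged 0.099 after morphine and 0.18 after butyrate and morphine, Rgs7 averaged -0.015 and 0.047, and Rgs11 averaged -0.098 and 0.00090.

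Rgs2, an RGS protein selective for Gq and induced early by neuronal activity, spread widely over the saline arrays, from -0.24 to 0.24. Its morphine arrays were at 0.31, -0.021 and 0.14 and its butyrate-morphine arrays at 0.17, 0.069 and 0.32. Most of these lay within the saline range, and neither mean passed (0.14 ± 0.16, adjusted p = 0.517, and 0.19 ± 0.13, adjusted p = 0.327, SD, n = 3 each). Rgs16, another activity-dependent R4 member, had the highest morphine mean of any member at 0.28, drawn mainly from morphine array 2: its arrays were at 0.097, 0.57 and 0.16, with an SD of 0.26 (adjusted p = 0.229), and its butyrate-morphine mean was 0.11 (adjusted p = 0.672). Rgs8, which lies next to Rgs16 on chromosome 1 with no protein-coding gene between them, had negative means in both groups (-0.16 and -0.14). It had morphine arrays at -0.023, -0.24 and -0.21 and butyrate-morphine arrays at -0.086, -0.25 and -0.088. The latter lay below all saline arrays (-0.060 to 0.060), but its adjusted p was 0.155 after morphine and 0.200 after butyrate and morphine. The neighbours Rgs8 and Rgs16 therefore differed in the sign of their means, unlike Rgs4 and Rgs5.

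Among the remaining R4 and R12 members no array pattern separated the groups. Rgs18, a regulator best known from platelets, stayed within 0.036 of 0 in all treated arrays. Rgs3, the only member with more than 1 probe set, averaged 0.095 after morphine and -0.033 after butyrate and morphine, and its 2 probe sets differed in sign in the latter group, at 0.048 and -0.11. Rgs12 had the largest morphine SD of any member (0.27), with arrays at 0.22, -0.31 and 0.011. Rgs14 had morphine arrays at 0.027, -0.15 and -0.32, with a mean of -0.15 (adjusted p = 0.298).

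**Figure D2:**
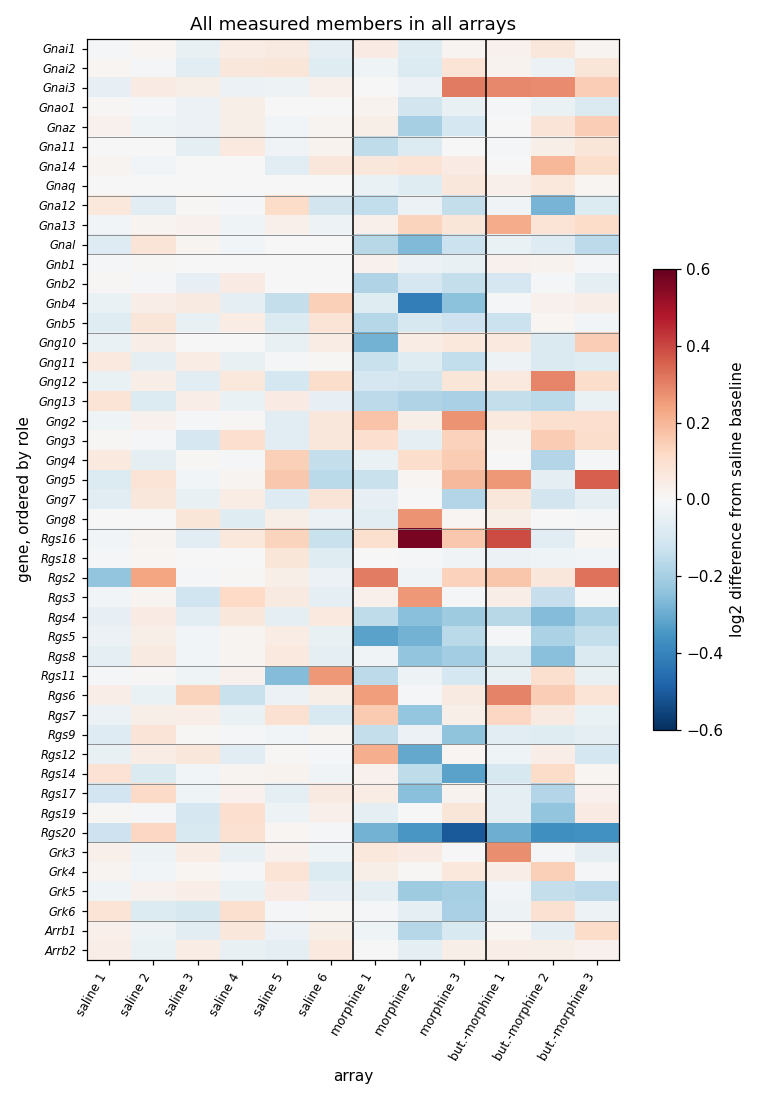
Log2 difference from the saline baseline (colour) for the 47 measured members (y axis, ordered by role) in the 12 arrays (x axis, by group). Rgs20 and Rgs4 are below the saline range in all 6 treated arrays, and the saline columns show the mirrored pairs.

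Gnal encodes the alpha subunit of Golf, the form that carries dopamine D1 and adenosine signals in striatal projection neurons. Saline arrays lay between -0.079 and 0.079, with a median of 0. The morphine arrays were at -0.17, -0.27 and -0.13 and the butyrate-morphine arrays at -0.041, -0.076 and -0.16. The morphine arrays were all below saline, and butyrate-morphine arrays 1 and 2 lay within the saline range. Gnal fell by 0.19 after morphine (SD 0.070, n = 3), to 0.879 of the saline level (limma adjusted p = 0.0359), while its mean after butyrate and morphine was -0.091 ± 0.059 (SD, n = 3, adjusted p = 0.297). The morphine call held in 5 of 12 fits that left out 1 array, being lost without any of saline arrays 2 to 6 or morphine arrays 2 or 3 (adjusted p up to 0.107). Of 10 measured markers of projection neurons, Drd2, Bcl11b, Foxp1 and Pde10a fell in the same comparison. The mean of the 10 was -0.13, -0.17 and -0.19 in the morphine arrays and -0.069, -0.016 and -0.0049 in the butyrate-morphine arrays, against -0.045 to 0.045 in saline, and none was called after butyrate and morphine. Its part in the Gnal value was not tested.

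None of the other 10 alpha subunits passed in either comparison. The inhibitory subunits Gnai1, Gnai2 and Gnao1, the abundant brain form, had means within 0.047 of 0 in both treated groups. Gnai3 had morphine arrays at 0.0026, -0.034 and 0.31 and butyrate-morphine arrays at 0.29, 0.28 and 0.15. The latter all lay above the saline range of -0.049 to 0.049, and their mean was 0.24 ± 0.079 (SD, n = 3, adjusted p = 0.0730). Gnai3 was called higher in the fits without morphine array 2 or 3 (3.65% and 3.17% of all genes called). The same held with array weights (4.6%), only the groups compared (4.96%) and only rows of stored values of 8 or more (3.72%). Gna13, an alpha subunit of the G12/13 class, lay above 0 in all 6 treated arrays, at 0.029, 0.13 and 0.073 after morphine and 0.22, 0.082 and 0.11 after butyrate and morphine. The butyrate-morphine arrays were above the saline range of -0.031 to 0.031, with a mean of 0.14 ± 0.075 (SD, n = 3, adjusted p = 0.0728). Its relative Gna12 averaged -0.11 and -0.13, and the Gq class members Gnaq, Gna11 and Gna14 averaged between -0.078 and 0.066 after morphine and between 0.031 and 0.10 after butyrate and morphine. Only 2 members, Gna13 and Gng2, were above 0 in all 6 treated arrays (4.26%, beside 9.98% of all genes), and 12 were below 0 in all 6 (25.5%, beside 8.6%).

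All 4 beta subunits had negative means after morphine. Gnb2, a widely expressed beta subunit, had saline arrays between -0.050 and 0.050, morphine arrays at -0.18, -0.10 and -0.14, and butyrate-morphine arrays at -0.099, -0.012 and -0.056. The morphine arrays lay below saline without overlap, and the butyrate-morphine arrays overlapped it. Gnb2 fell by 0.14 after morphine (SD 0.039, n = 3), to 0.907 of the saline level (limma adjusted p = 0.0419). That call held in 4 of 12 fits that left out 1 array, and ended when saline arrays 1, 2, 4, 5 or 6, morphine arrays 1 or 3, or array 3 of butyrate-morphine were left out (adjusted p up to 0.126). Gnb1, the major striatal beta subunit, differed little between arrays: saline lay within 0.0073 of 0, morphine arrays were at 0.024, -0.037 and -0.044, and butyrate-morphine arrays at 0.025, 0.021 and -0.0097. Its 95% interval after morphine was -0.079 to 0.041. Gnb4 had the lowest beta mean after morphine, -0.24 ± 0.17 (SD, n = 3, adjusted p = 0.0858), with arrays at -0.074, -0.42 and -0.25 that overlapped a saline range of -0.14 to 0.14.

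Among the gamma subunits, Gng13, first described with taste receptor signalling and also a partner of brain G proteins, was the one that fell. Saline arrays lay between -0.083 and 0.083, morphine arrays were at -0.16, -0.18 and -0.20, and butyrate-morphine arrays were at -0.15, -0.16 and -0.042. The morphine arrays were below saline and close to each other, and butyrate-morphine array 3 overlapped saline. Gng13 fell by 0.18 after morphine (SD 0.019, n = 3), to 0.884 of the saline level (limma adjusted p = 0.0454), and averaged -0.12 ± 0.065 (SD, n = 3, adjusted p = 0.181) after butyrate and morphine. Its morphine call held only in the fits without saline array 2 or butyrate-morphine array 3, and was lost in the other 10 fits that left out 1 array (up to 0.152). Gng7, the gamma subunit of striatal Golf, had saline arrays between -0.076 and 0.076, morphine arrays at -0.051, -0.00066 and -0.17, and butyrate-morphine arrays at 0.069, -0.11 and -0.057. The groups overlapped, and its mean of -0.075 ± 0.089 (SD, n = 3) after morphine did not pass (adjusted p = 0.562). The other 8 gamma subunits had morphine means between -0.12 (Gng11) and 0.16 (Gng2, adjusted p = 0.0906). Gng2 was called higher with array weights and without morphine array 2 (2.37% and 2.47% of all genes called).

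No receptor kinase or arrestin passed. Grk5 was the lowest of these 6 genes: its morphine arrays were at -0.054, -0.21 and -0.20 and its butyrate-morphine arrays at -0.018, -0.14 and -0.16, against a saline range of -0.052 to 0.052. The morphine arrays did not overlap saline, but their mean of -0.16 ± 0.089 (SD, n = 3) had an adjusted p of 0.0932, and without morphine array 1 it passed (0.0215). In that fit 5.28% of all genes were called, and Gnb4, Rgs8 and Rgs14 passed as lower too. Arrb1, one of the pair of arrestins that bind phosphorylated receptors outside the retina, had saline arrays between -0.067 and 0.067, morphine arrays at -0.027, -0.17 and -0.089, and butyrate-morphine arrays at 0.014, -0.057 and 0.11. Its groups overlapped, with a mean of -0.097 ± 0.073 (SD, n = 3, adjusted p = 0.333) after morphine. Arrb2, the arrestin most studied for mu opioid receptor desensitisation, had morphine arrays at 0.0022, -0.054 and 0.034 and butyrate-morphine arrays at 0.039, 0.035 and 0.027. These all lay within the saline range of -0.057 to 0.057, and the 95% interval of its morphine difference was -0.085 to 0.073. Grk3, Grk4 and Grk6 had means between -0.086 and 0.068 in the treated groups.

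After butyrate and morphine, 2 of the 47 members fell, Rgs20 and Rgs4, and none rose. That is 4.26% of the members, where 2.48% of all genes passed in either direction, 0.637% as lower and 1.85% as higher. At an unadjusted p under 0.05, 6 members were lower and 5 higher (23.4%, beside 17% of all genes, 1284 lower and 2103 higher). The median difference of the members was 0.011, beside 0.0063 over all genes, and 20 of 47 lay below 0 (42.6%, beside 46.4% of all genes). The 3 butyrate-morphine arrays lay above all saline arrays for Gnai3, Gnaq and Gna13 (6.38%, beside 7.1% of all genes) and below them for Rgs4, Rgs8 and Rgs20 (6.38%, beside 4.55%). Both comparisons use the same saline arrays, so their values are given side by side and not counted as separate evidence. Without butyrate-morphine array 2 no member was called (1.17% of all genes were), and with saline arrays 1, 3 and 5 none was either (0.712% of all genes).

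Averaged over both morphine groups and set against saline, 5 members fell and none rose (10.6%, beside 4.59% of all genes in either direction, 1.91% lower and 2.69% higher). Rgs20 fell by 0.36 (limma adjusted p = 0.00108), Rgs4 by 0.20, Rgs5 by 0.18 (0.0136), Gng13 by 0.15 (0.0302) and Gnal by 0.14 (0.0386). Gnb2 was at -0.099 (0.0584). Rgs20, Rgs4 and Rgs5 were called in all 12 fits that left out 1 array, but Rgs5 was lost without any 1 of the saline pairs (0.0884, 0.0784 and 0.0628) and with saline arrays 1, 3 and 5, 1 to 3 or 4 to 6 (0.128, 0.176 and 0.176). With 1 array left out, Gng13 was called in 6 fits (adjusted p up to 0.0766) and Gnal in 4 (up to 0.0888). Leaving out saline arrays 1, 3 or 5, morphine array 3, or array 1 or 2 of butyrate-morphine ended the Gng13 call. The Gnal call ended without any of saline arrays 2 to 6, without morphine array 2, and without array 2 or 3 of butyrate-morphine. All 6 treated arrays lay below all saline arrays for Rgs4 and Rgs20, 4.26% of members beside 1.34% of all genes, and above them for none (1.95% of all genes).

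**Figure D3:**
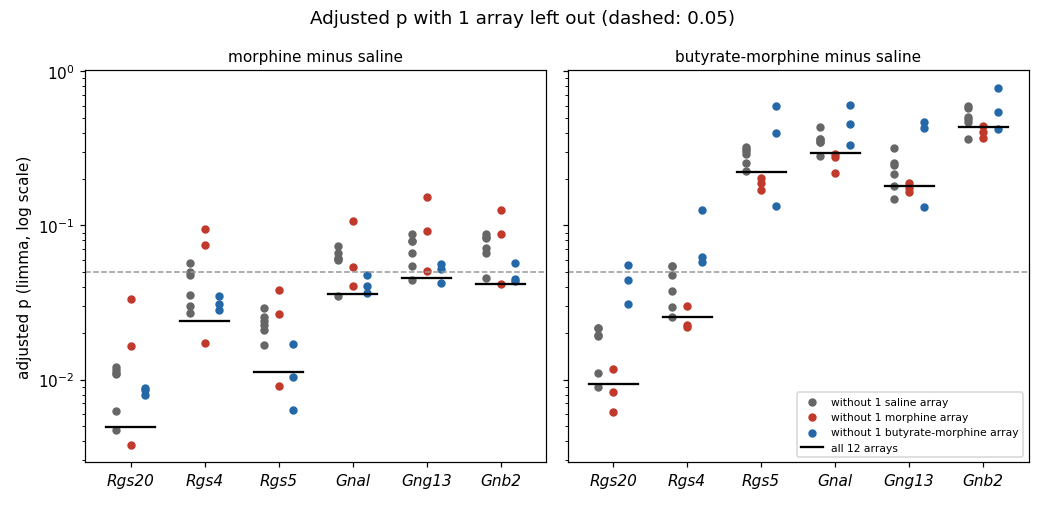
Adjusted p (limma, log axis) for the 6 members called after morphine (x axis) with all arrays and with each of the 12 arrays left out, for the comparisons with saline; the dashed line is the threshold of 0.05. For morphine, Rgs20 and Rgs5 stay under the line in all fits, and Gng13 crosses it in most.

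The question of the series, whether butyrate changes the response to morphine, is addressed by butyrate-morphine against morphine, which does not use the saline mean. No member passed, and neither did any of the 19935 genes (0 called, 0%) at a limma adjusted p under 0.05. At an unadjusted p under 0.05, 7 members passed (14.9%, beside 8.62% of all genes), all with the higher value in the butyrate-morphine group: Gnaz, Gna11, Gnb2, Gnb4, Gng12, Rgs5 and Arrb1. The members' median difference was 0.046, beside 0.011 over all genes, and 35 of 47 lay above 0, beside 11344 of 19935 genes. Below 0 lay 25.5% of the members and 43.1% of all genes.

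Gnb4 differed most, by 0.26 (95% interval 0.090 to 0.44, unadjusted p = 0.00609, adjusted p = 0.388), with butyrate-morphine arrays at -0.0075, 0.025 and 0.039 all above the morphine arrays. Gnb2 was the only other member whose arrays did not overlap between these groups, with a difference of 0.086 (0.0029 to 0.17, adjusted p = 0.558). These 2 members are 4.26% of those measured, beside 7.75% of all genes without overlap in that direction, and no member lay without overlap in the other (2.99% of all genes). Gnaz, the pertussis toxin-insensitive member of the Gi/o class on which Rgs20 acts, differed by 0.16 (0.045 to 0.28, adjusted p = 0.422), and its arrays overlapped. Rgs5 differed by 0.14 (0.026 to 0.26, adjusted p = 0.481).

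For the members that fell in both treated groups, the difference between those groups was small but its interval was wide beside it. That of Rgs20 was 0.038, with a 95% interval of -0.11 to 0.19. That of Rgs4 was -0.00043 (-0.11 to 0.11). For Gnal the difference was 0.10 (-0.0093 to 0.20, adjusted p = 0.617) and for Gng13 0.062 (-0.045 to 0.17, adjusted p = 0.783). Gnal, Gnb2, Gng13 and Rgs5 passed against saline after morphine and not after butyrate and morphine, but none of the 4 differences between the groups passed. The 10 projection neuron markers had a median difference of 0.14 in this comparison, with none called. Their part was not tested.

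**Figure D4:**
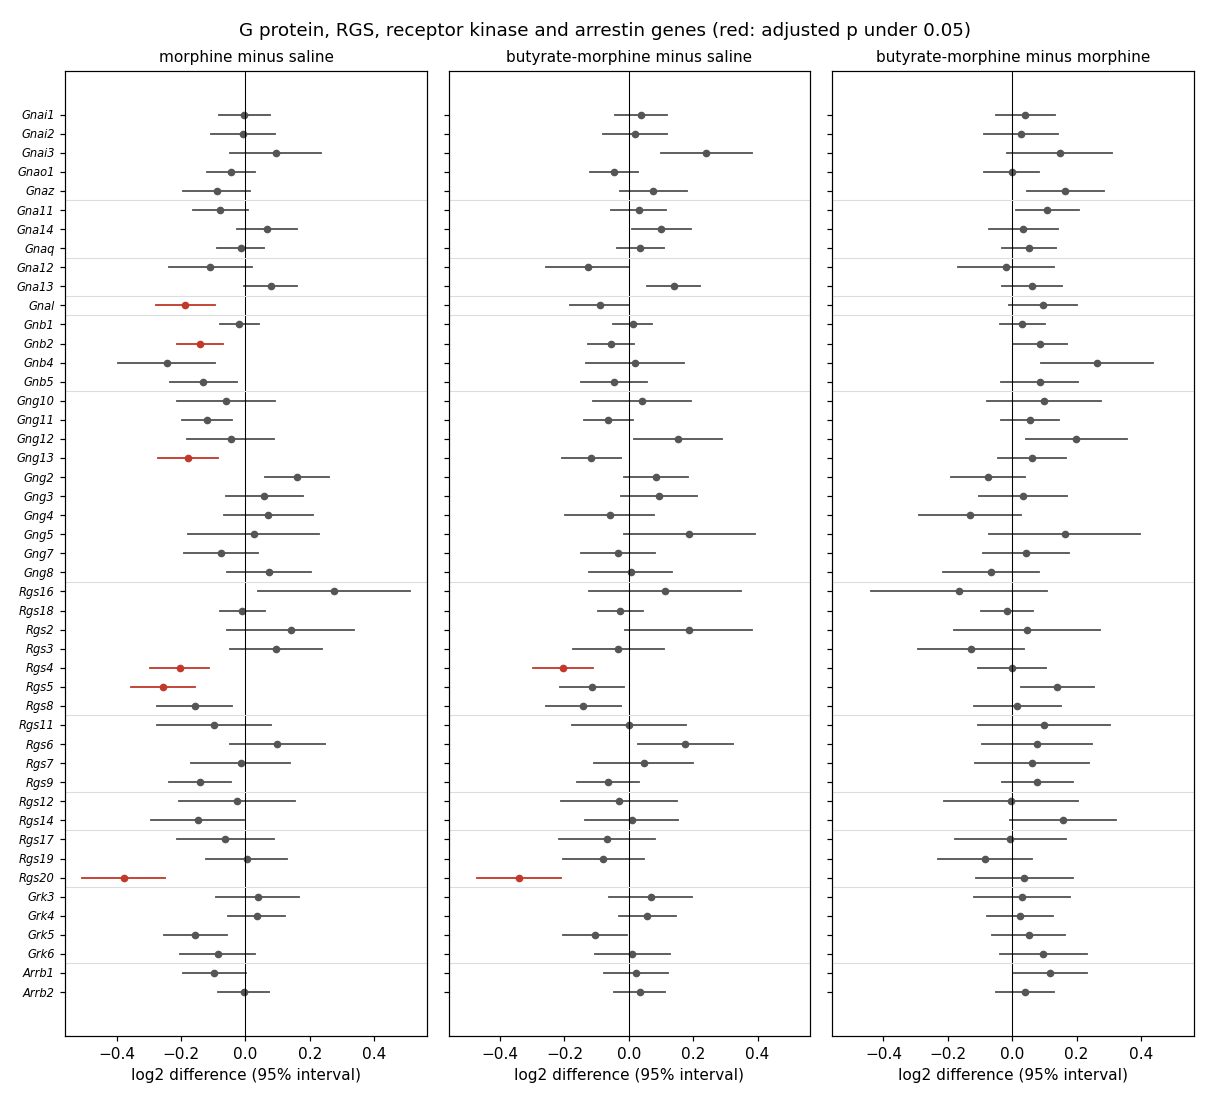
Log2 difference with its 95% interval (x axis) for each of the 47 members (y axis, by role) in morphine minus saline, butyrate-morphine minus saline and butyrate-morphine minus morphine. Members with an adjusted p under 0.05 are red: 6 in the first panel, 2 in the second and none in the third, all of them below 0.

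Genes that work directly with the members gave few calls. Of 9 adenylyl cyclases, the enzymes that make cyclic AMP, Adcy5 fell after morphine and none rose. Adcy5, the main striatal form and a target of Golf, had morphine arrays at -0.14, -0.11 and -0.22 and butyrate-morphine arrays at -0.084, 0.0036 and -0.038, against a saline range of -0.043 to 0.043. It fell by 0.16 after morphine (SD 0.055, n = 3, limma adjusted p = 0.0301) and not after butyrate and morphine (-0.039, adjusted p = 0.625). That call was lost without saline arrays 1, 2, 3, 4 or 6 or morphine array 3 (up to 0.140).

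Of 4 phospholipase C beta genes, which Gq and beta-gamma activate, Plcb3 fell after morphine. Its morphine arrays were at -0.20, -0.20 and -0.19, close together and below a saline range of -0.087 to 0.087, and its butyrate-morphine arrays at -0.23, -0.14 and -0.11. The morphine mean was -0.20 ± 0.0052 (SD, n = 3, limma adjusted p = 0.0193), a call lost without morphine array 3 (0.0703), and the butyrate-morphine mean was -0.16 (adjusted p = 0.0566). None of 4 GIRK channel genes and 4 anchors of RGS proteins was called in these comparisons.

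Of 9 chaperones and receptor-independent regulators of G proteins, Rasd1 rose in both groups. Rasd1 encodes a small GTPase induced by glucocorticoids that acts on Gi signalling. Its saline arrays lay between -0.12 and 0.12, its morphine arrays were at 0.41, 0.84 and 0.66, and its butyrate-morphine arrays at 0.58, 0.20 and 0.48. All 6 treated arrays were above saline, with rises of 0.64 ± 0.22 (SD, n = 3, 1.56-fold, limma adjusted p = 0.00294) and 0.42 ± 0.20 (SD, n = 3, 1.34-fold, adjusted p = 0.0348). Leaving out saline arrays 1, 2, 4 or 5, or array 1 or 3 of butyrate-morphine, ended the second call (adjusted p up to 0.163), and the morphine call held in all 12 such fits. Rasd1 thus changed more than any of the 47 members. Of 14 further family genes outside the member list, Rgs22 rose after butyrate and morphine (0.26 ± 0.14, SD, n = 3, limma adjusted p = 0.0464) and was at 0.19 after morphine (adjusted p = 0.133). The Rgs22 call held in 5 of 12 fits that left out 1 array, and ended when saline arrays 1, 2, 4 or 5, morphine array 3, or array 2 or 3 of butyrate-morphine were left out (adjusted p up to 0.208).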

How the data were processed

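The authors deposited 1 table of values on a log scale, taken as log2, with 28815 probe-set rows by 12 arrays. These values are centred on a saline baseline. The log base is not stated. It was inferred from the rounding of the values, which gives the size class of the stored numbers and does not fix the base. Each value "of the saline level" and each fold change therefore rests on the scale being log2. How the arrays were background-corrected, normalized and summarised is not given here by labels or headers. Rows with a single symbol in the platform annotation (21780; 1605 had several and 5430 none) were averaged to 19935 genes. All 47 measured members matched RefSeq symbols of GRCm38.p6.

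Groups were compared with limma 3.58.1 (R 4.3.3; lmFit, eBayes), fitting 3 group means to the 12 arrays with a common spread, with Benjamini-Hochberg adjustment over all genes and a threshold of 0.05. The fit counted 9 residual degrees of freedom, of which mirrored saline values leave 7 independent, so its p-values may be too small. It was tested on simulated data in which each saline pair was mirrored and the same-numbered treated arrays were centred on that pair. The labels do not state that centring. For the comparisons with saline, the check required recovery of losses larger than any member's difference, with no wrong sign. It set no limit on false calls, so it does not show how reliable the smaller calls are. "Without overlap" means that all arrays of one group lie beyond all arrays of the other.

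Full values are given for members called in any comparison, the members of lowest p up to 8, and Gnal, Gnb1, Gng7, Gnb5, Rgs9, Rgs4, Rgs2, Arrb1 and Arrb2. Others given array by array were chosen after their values were seen. Members and lists were chosen with earlier results of these data known. Alternatives were other saline subsets, scaling, moderation, weights, row sets, thresholds, the replicate block and each array left out. Leaving out both arrays of a mirror pair was added after seeing the data.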

Additional observations from a re-analysis of the deposited data

How the results depend on the processing

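No named member's called difference reversed. The number of members called moved as follows from 6 (morphine), 2 (butyrate-morphine) and 5 (both morphine groups against saline). Percentages beside the counts are the shares of all genes called, in the same order. With saline arrays 1, 3 and 5 only it was 1, 0 and 2 (0.587%, 0.712% and 1.05%). With saline arrays 1 to 3 only it was 0, 0 and 0 (0.502%, 0.532% and 0.823%), and with saline arrays 4 to 6 only 1, 1 and 1 (0.482%, 0.527% and 0.712%). Without both arrays of saline pair 1 and 2 it was 1, 1 and 2 (0.762%, 0.808% and 1.32%). Without pair 3 and 4 it was 1, 1 and 2 (0.853%, 0.958% and 1.63%), and without pair 5 and 6 it was 2, 0 and 2 (1.03%, 1.02% and 1.87%). Quantile normalization gave 0, 0 and 0 (0.376%, 0.502% and 0.973%). For eBayes with trend and robust it was 2, 1 and 3 (1.16%, 1.15% and 2.63%). At an adjusted p under 0.01 it was 1, 1 and 2 (0.752%, 0.853% and 1.65%), and under 0.1 it was 9, 4 and 12 (5.11%, 5% and 8.12%). With array weights 4 members were called after butyrate and morphine (2 higher and 2 lower, 4.6%) and 10 over both groups (3 higher and 7 lower, 7.43%). Against the baseline at 0 it was 10 over both groups (1 higher and 9 lower, 10.1%). In these fits the share over all genes thus rose along with the member counts. With only rows of stored values of 8 or more it was 3 of 25 members over both groups (6.65%). The causes were not tested, except that the saline subsets hold fewer arrays and that stored class leaves out Rgs20 and Gng13. Saline subsets that split a mirror pair also move the saline mean off 0. With 1 array left out the counts ranged from 2 to 8 after morphine, from 0 to 3 after butyrate and morphine, from 3 to 8 over both groups, and stayed at 0 for butyrate-morphine against morphine. Over all genes the share called then ranged from 1.2% to 5.28% after morphine and from 1.07% to 3.65% after butyrate and morphine. Over both groups it ranged from 2.77% to 6.86%. Median centring, probe sets 1 by 1, all rows and only the groups compared moved no count past 1.5 times; the last gives no value over both groups. With the replicate number as a block, the counts were 0, 0 and 1 (Rgs20, limma adjusted p = 0.0328), beside 0.456%, 0.482% and 0.737% of all genes. That fit set saline arrays 4 to 6 as 1 further block and so did not follow the mirror pairs. Deviations of same-numbered morphine and butyrate-morphine arrays from their group means correlated at -0.12, -0.27 and -0.20. With 3 arrays in each of these groups, such values cannot show whether the numbers pair the samples. The number of arrays limits the precision.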

Other observations

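The saline values hold only 3 deviations within pairs per gene, so their SD does not show how alike the 6 pools were. By that measure Gnaq, the alpha subunit of Gq, stayed within 0.0019 of 0 in all 6 saline arrays (SD 0.0012), and 0.00502% of all genes had a smaller saline SD. Gnb1 had a saline SD of 0.0054, below which lay 0.120% of genes. At the other end, Rgs11 had a saline SD of 0.17 and Rgs2 of 0.15, above those of 98.1% and 96.9% of genes. The treated arrays of Gnaq ranged from -0.074 to 0.068 after morphine and from 0.012 to 0.064 after butyrate and morphine.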
